A study of Mus musculus with 72 samples.

Results

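The messenger RNAs of 10 core genes of insulin and insulin-like growth factor (IGF) signalling were followed in mouse testes, ovaries and livers: Igf1, Insr, Igf1r, Irs1, Irs2, Pik3r1, Akt2, Foxo1, Igfbp1 and Igfbp2. The genes were chosen by symbol, and all 10 were found in each of the 7 tables of gene counts, which list 25239 symbols for the fetal testis and 35976 for each of the other tissues. The first generation (F1) comprised males conceived by in vitro fertilization (IVF) and males conceived by natural mating (naturals). Both came from CF-1 females and SJL/B6 males heterozygous for a GFP transgene. IVF embryos came from superovulated females, were cultured to the blastocyst stage and were transferred into pseudopregnant recipients, whereas naturals had no superovulation, culture or transfer. These steps therefore cannot be told apart within the IVF groups. F1 testes were sampled in the fetus at E18.5 (4 naturals, 6 IVF libraries), at 12 weeks of age (5 of each) and at 39 weeks (4 naturals, 6 IVF). The second generation (F2) was sired by F1 males of either origin mated with unmanipulated CF-1 females, so F2 animals labelled IVF descended from an IVF-conceived father and were not made by IVF. F2 tissues were taken at 12 weeks, with 5 naturals and 7 IVF for testis, 5 and 5 for male liver, 5 and 6 for female liver, and 4 and 5 for ovary. Of the fetal gonads the methods state that the tissue was snap-frozen. For the adults they describe frozen tubules of 1 testis. Elsewhere they describe RNA from a part of each frozen testis and RNA from a section across the testis, so the portion sequenced is unclear. The labels number the libraries without naming animals, litters or sires, so p-values measure only the spread between these libraries. The paper counts F2 pups from 4 breeding pairs per group, and F2 libraries of the same group may share a sire.

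Insulin and IGF-1 act through related receptor tyrosine kinases, encoded by Insr and Igf1r, which phosphorylate the adaptor proteins IRS1 and IRS2. The adaptors recruit phosphoinositide 3-kinase, whose main regulatory subunit is encoded by Pik3r1, and its lipid product activates AKT kinases, AKT2 being the form most tied to insulin action in liver. AKT keeps the transcription factor FOXO1 out of the nucleus, and in the fasted liver nuclear FOXO1 raises genes such as Igfbp1 and Irs2. Most circulating IGF-1 is made by hepatocytes under growth hormone, and the binding proteins encoded by Igfbp1 and Igfbp2 hold IGFs in blood and tissue.

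Because Igfbp1 and Irs2 are known targets of insulin and FOXO1, the 250 bases before annotated transcript starts were searched on both strands. The letters sought were GTAAACA, a FOXO-binding element, and CAAAACA, the core of the insulin response element. The sequences were taken from RefSeq on GRCm38.p6, and 14 windows covered 9 of the 10 genes, Insr having none. Pik3r1, Akt2 and Igfbp2 had more than 1 window, some of them inside the gene. The only Igf1 window (chr10:87860861-87861110) also lay inside its gene (chr10:87858265-87937047), so the bases before that gene were not searched. GTAAACA was found in no window of these genes, against 3.17% of 32851 windows of all genes. CAAAACA lay in 3 of the 14 windows, those of Igfbp1, Irs2 and Irs1, against 5.56% of all windows. The letters were chosen because of Igfbp1 and Irs2, so these shares are no test of enrichment. The 3 windows are shown because these genes carry the match, written from 5′ to 3′ on the strand of the gene and ending at the base before its start, with the match in capitals (TGTTTTG where it lies on the opposite strand):
Igfbp1 (chr11:7197537-7197786, plus strand): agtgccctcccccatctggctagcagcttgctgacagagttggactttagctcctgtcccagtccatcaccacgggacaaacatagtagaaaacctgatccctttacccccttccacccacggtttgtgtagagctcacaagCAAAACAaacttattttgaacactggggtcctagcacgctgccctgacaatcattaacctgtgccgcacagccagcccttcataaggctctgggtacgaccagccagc
Irs2 (chr8:11008930-11009179, minus strand): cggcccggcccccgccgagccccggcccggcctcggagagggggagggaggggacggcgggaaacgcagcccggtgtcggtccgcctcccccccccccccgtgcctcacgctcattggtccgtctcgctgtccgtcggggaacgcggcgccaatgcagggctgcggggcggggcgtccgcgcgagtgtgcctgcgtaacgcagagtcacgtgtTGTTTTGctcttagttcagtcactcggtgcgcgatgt
Irs1 (chr1:82291440-82291689, minus strand): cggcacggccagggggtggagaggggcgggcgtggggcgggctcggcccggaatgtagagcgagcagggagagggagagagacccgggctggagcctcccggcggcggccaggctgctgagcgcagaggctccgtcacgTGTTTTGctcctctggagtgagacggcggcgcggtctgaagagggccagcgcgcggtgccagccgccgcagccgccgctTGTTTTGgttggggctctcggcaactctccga
The match lay 108 to 102 bases before the start of Igfbp1 and 37 to 31 bases before that of Irs2. Irs1 held a pair of matches, at 111 to 105 and at 32 to 26 bases. The letters alone describe these windows and do not mark bound sites. Of these 3 genes, Irs2 alone passed the test in the livers as counted, and none passed once each library's trend with GC content was removed.

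Total counts ranged from 543745 to 90441392 over the 72 libraries. In the F2 male livers, IVF libraries held 543745 to 12624673 counts (median 8240913) and naturals 10391074 to 44069283 (median 15917095). In the F2 female livers depth ran the other way, with 13815244 to 90441392 in IVF (median 17941742.5) and 3947645 to 34149676 in naturals (median 7098069). At E18.5 every natural library (2904727 to 4869139) was shallower than every IVF library (8500054 to 15745480). The defining markers of each labelled tissue were present. Summed hepatocyte markers stood at 76090 CPM (counts scaled to the TMM-adjusted library total) or more in every liver. Summed spermatid markers stood at 11310 CPM or more in every adult testis. Granulosa cell markers stood at 2205 CPM or more in every ovary, where oocyte markers also reached 184 to 327 CPM. One fetal testis library, natural 1, carried 527 CPM of hepatocyte markers against 16.3 to 40.6 CPM in the other fetal testes. Spermatid markers stood at 81.1, 15.4 and 122 CPM in natural 1, 4 and 5 of the male livers, against 0 to 3.71 CPM in the other male livers, and the number of the 10 genes called in male liver was 4 without natural 1, 3 without natural 4 and 5 without natural 5. The tissues were bulk samples, in which fewer cells of a type and less RNA per cell cannot be told apart.

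In naturally conceived animals the ligand and the insulin receptor were liver-rich, the IGF-1 receptor was gonad-rich, and the adult testis held the least of most of the genes. Levels are given as CPM per kilobase of exon (mean ± SD over libraries), which allows genes of different length to be compared. Each tissue and age was a separate set of counts, so tissue, age and set cannot be told apart in any comparison of levels. Igf1 (chr10:87858265-87937047), the ligand, was highest in female liver, at 243.6 ± 41.0 (n = 5), followed by male liver at 111.7 ± 17.9 (n = 5), fetal testis at 34.9 ± 7.56 (n = 4) and ovary at 11.9. No library of one of these 4 groups overlapped the next. In the adult testes Igf1 averaged 0.311 to 0.746.

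Insr (chr8:3150922-3279649) averaged 17.96 in male and 17.4 in female liver, whose libraries overlapped, then 7.06 in ovary, 4.62 in fetal testis and 1.65 to 2.50 in the adult testes. Igf1r (chr7:67952257-68233668) ran the other way, with 16.7 in ovary, 9.96 in fetal testis, 1.75 to 1.80 in the adult testes and 0.318 and 0.211 in female and male liver. In male liver the level of Insr per kilobase thus exceeded that of Igf1r, whereas in ovary it lay below it. Among the adaptors, Irs1 (chr1:82233105-82291439) was highest in ovary, at 12.7, and Irs2 (chr8:10984681-11008929) in fetal testis, at 5.74, where its range overlapped that of male liver (3.59). Both were low in the adult testes, Irs1 at 0.231 to 0.261 and Irs2 at 0.806 to 0.885. Pik3r1 (chr13:101680761-101768217) was also highest in ovary, at 26.2, followed by female liver at 19.3, whose range overlapped it, and lay at 0.445 to 0.660 in the adult testes.

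Akt2 (chr7:27591552-27640826) was the most even of the 10 genes, with means from 11.1 in female liver to 25.3 in male liver. Foxo1 (chr3:52268337-52350109) stood at 44.9 in ovary, with no library overlapping another tissue, at 11.6, 10.5 and 9.11 in female liver, male liver and fetal testis, whose ranges overlapped, and at 1.52 to 1.54 in the adult testes. Igfbp1 (chr11:7197787-7202546) averaged 74.2 in female and 26.0 in male liver. In the gonads it had at most 6 raw counts in any library, apart from the fetal testis library with hepatocyte markers. That library had more, at a level of 5.87 CPM per kilobase. Igfbp2 (chr1:72824480-72852474) had the highest level of any of the 10 genes, at 495.1 in male liver and 265.2 in female liver, whose libraries overlapped, against 15.4 in ovary and 4.60 to 9.74 in the testes.

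**Figure D1:**
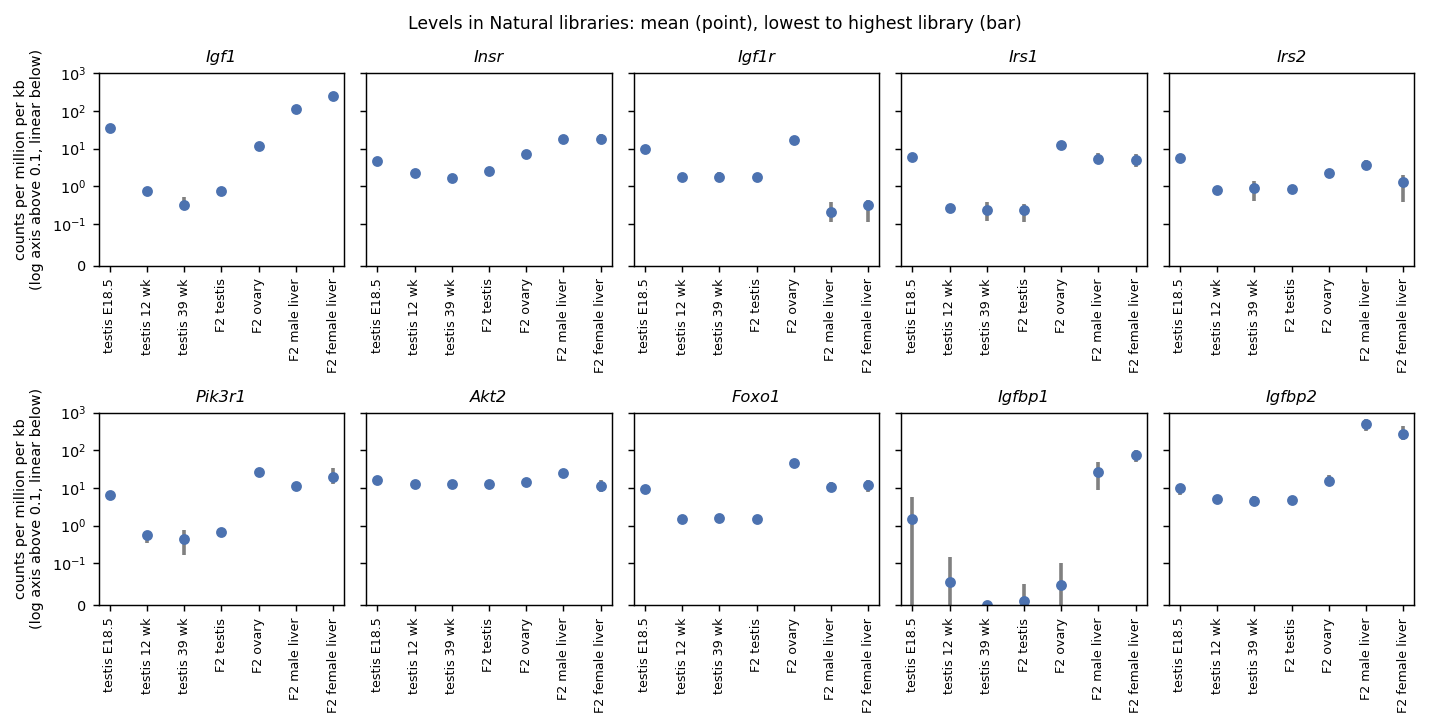
Level of each of the 10 genes in naturally conceived animals or naturally descended F2 animals, in CPM per kilobase of exon on an axis that is linear below 0.1 and logarithmic above; points are means and bars run from the lowest to the highest library of 4 or 5. Igf1, Igfbp1 and Igfbp2 peak in liver, Igf1r, Irs1, Pik3r1 and Foxo1 in ovary, and Akt2 varies least.

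Between E18.5 and 12 weeks, 9 of the 10 genes fell in the testis of naturals, where 73.7% of all genes tested passed in either direction and 33.4% fell (quasi-likelihood F test of edgeR, p adjusted over 18451 genes, called at an adjusted p under 0.05 and more than 1.5-fold). Igf1 fell 47.8-fold (log2 ratio -5.58 ± 0.21, SE), Irs1 22.9-fold (-4.51 ± 0.29) and Pik3r1 11.7-fold (-3.54 ± 0.28). Irs2 (-2.83), Foxo1 (-2.58) and Igf1r (-2.50) followed, with Insr (-1.02) and Igfbp2 (-0.91) the smallest of the calls. Akt2 had a log2 ratio of -0.37 ± 0.16, within the 1.5-fold limit. The call of Igfbp1 rested on the 1 fetal library with hepatocyte markers, and without it 8 genes were called. The median log2 ratio of all genes was 0.17 under TMM scaling and -0.61 under scaling by library totals. In naturals, summed Leydig cell markers stood at 1635 to 3960 CPM at E18.5 and at 777 to 1178 CPM at 12 weeks. Sertoli cell markers stood at 3973 to 5669 and at 874.7 to 998.2 CPM. Spermatocyte markers stood at 42.81 to 71.25 and at 1939 to 2060 CPM, and spermatid markers at 3.898 to 5.41 and at 14130 to 16150 CPM. Age, the make-up of the tissue and the set of counts cannot be told apart.

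From 12 to 39 weeks only Igf1 was called among the 10 genes, against 0.168% of all genes tested. It fell 2.33-fold in naturals (log2 ratio -1.22 ± 0.21, edgeR adjusted p = 0.00605). The call was lost without 39-week natural 1 (edgeR adjusted p = 0.0658) or natural 2 (0.0603), and in IVF testes the log2 ratio was -0.30 (edgeR adjusted p = 0.83). Naturals 1 and 2 at 39 weeks were close to each other in all genes, with a chi-square per degree of freedom of 1.53 between their counts. A fit of these levels with both summed was not run. Between F2 and F1 testes at 12 weeks no gene of the 10 was called, against 0.271% of all genes, and each of their log2 ratios was smaller than its SE (Igf1, 0.03 ± 0.18).

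Male liver differed from F2 testis in all 10 genes, where 81.8% of all genes tested differed. Igf1 was 150-fold (log2 ratio 7.22 ± 0.23) and Igfbp2 107-fold (6.74 ± 0.28) higher in liver, and Igf1r alone was lower, by 8.80-fold (-3.14 ± 0.23). Akt2 (log2 ratio 1.02) fell below the 1.5-fold limit, at 0.57, with DESeq2 size factors and, at 0.25, with library totals. Female liver differed from ovary in 8 genes, against 65.7% of all genes tested. Igf1 (20.5-fold, log2 ratio 4.36 ± 0.22), Igfbp2 (17.3-fold), Insr (2.48-fold) and Igfbp1 were higher in liver, and Igf1r (50.5-fold, -5.66 ± 0.26), Foxo1 (3.85-fold), Irs1 (2.58-fold) and Irs2 (1.61-fold) were higher in ovary. With IVF libraries in place of naturals, Irs2 was instead higher in female liver than in ovary (log2 ratio 1.27). No fold is given for Igfbp1 against the gonads, where it lay at or near 0 counts. The median log2 ratio of all genes was -0.78 for male liver against testis and -0.92 for female liver against ovary, and -1.55 and -2.03 with library totals.

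In the gonads, none of the 10 genes passed the test between IVF and naturals at any age or generation. Igfbp1 lay under the filter on low counts in all 5 gonad tables and was not tested there, which left 9 genes. Genes called among all those tested were few as well, at 0.221% at E18.5, 0.199% at 12 weeks, 0.00996% at 39 weeks, 0.914% in F2 testis and 0% in F2 ovary. In the ovary, 1757 genes had an unadjusted p under 0.05 with edgeR, and DESeq2's Wald test called 90, none of them among the 10. At an unadjusted p under 0.05, edgeR found Igfbp2 at 12 weeks, Igf1 at 39 weeks and Irs1 in the ovary, against 12.9%, 10.5% and 10.6% of all genes, and none of the 9 at E18.5 or in F2 testis, against 17.7% and 13.9%. DESeq2's Wald test called Igf1 at 39 weeks and none of the 10 in the other gonads. At 39 weeks it called 0.245% of all 35976 symbols listed, a base that includes genes without counts, against 20083 genes tested with edgeR. In fetal testis, log2 fold changes of IVF over naturals ran from -0.11 (Akt2) to 0.18 (Pik3r1), with Igf1 at 614.7 ± 122 CPM in naturals and 659.2 ± 49.1 in IVF. In F2 testis they ran from -0.34 (Irs1) to 0.01 (Igf1), and Igf1 averaged 7.15 ± 0.79 and 7.20 ± 0.70 CPM.

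**Figure D2:**
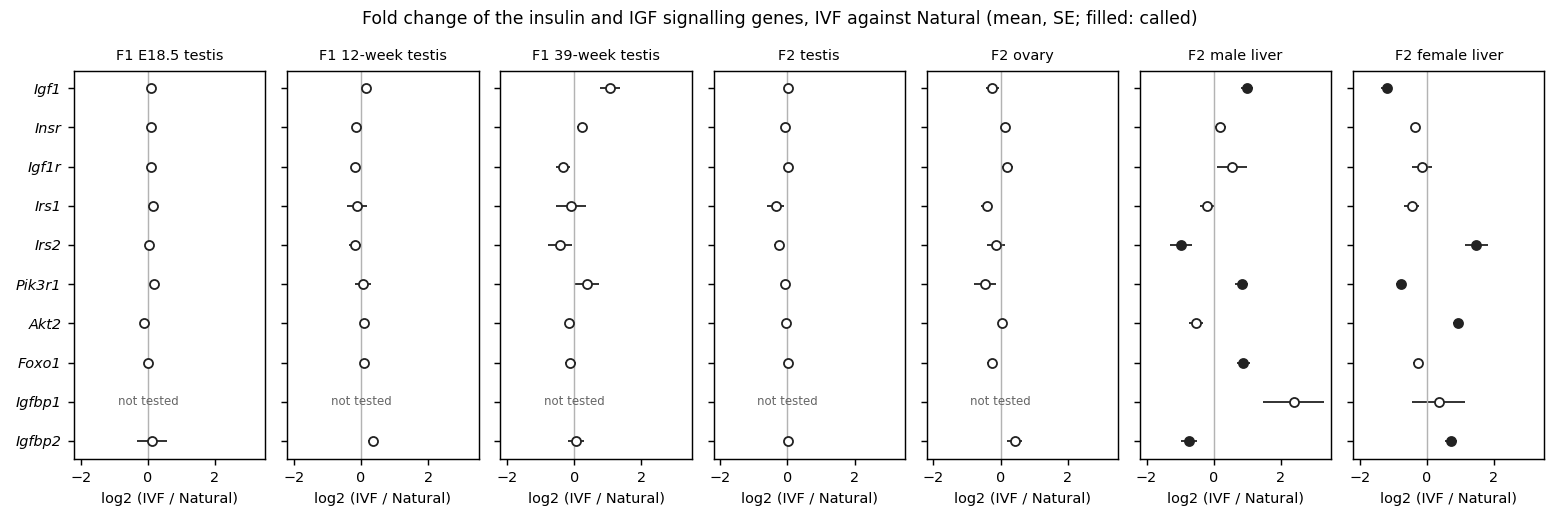
Log2 fold change of IVF over natural (points, with SE as bars) for each of the 10 genes in the 7 comparisons; filled points passed the test and the 1.5-fold limit. Filled points appear in the livers alone, where Igf1 lies at 0.98 in males and -1.19 in females.

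Igf1 in the 39-week testis came nearest to the threshold among these gonad values. Naturals held 2.28, 2.27, 4.89 and 2.43 CPM, and IVF testes 5.02, 3.59, 6.97, 7.90, 6.87 and 6.82 CPM. IVF 1 and IVF 3 to 6 lay above every natural, and IVF 2 lay between natural 3 and the other naturals. The log2 fold change was 1.06 ± 0.29 (SE) with an edgeR adjusted p of 0.251, and DESeq2's Wald test gave an adjusted p of 0.0425. Without natural 3 it was 1.40, with an edgeR adjusted p of 0.0781. With the trend of fold change on GC content removed, it was 0.78 with an edgeR adjusted p of 0.608. Naturals 1 and 2 were close to each other in all genes, with a chi-square per degree of freedom of 1.53 between their counts, against 13.9 to 31.8 for the other pairs of that group. With these 2 libraries summed and counted as 1, the log2 fold change was 0.96 with an adjusted p of 0.495 in edgeR and 0.162 in DESeq2's Wald test. These 4 naturals are the same libraries in which Igf1 was lower than at 12 weeks. Summed Leydig cell markers ranged from 657 to 1189 CPM in the naturals and from 504.5 to 1142 CPM in IVF, Sertoli cell markers from 801.5 to 1020 and from 958 to 1249, and none of the 8 and 9 markers tested passed. Spermatocyte markers ranged from 1555 to 1768 CPM in the naturals and from 1882 to 2086 CPM in IVF, without overlap, with 0 of 7 called. Spermatid markers ranged from 13440 to 28160 and from 14300 to 21490 CPM. The part of these markers in the result was not tested.

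**Figure D3:**
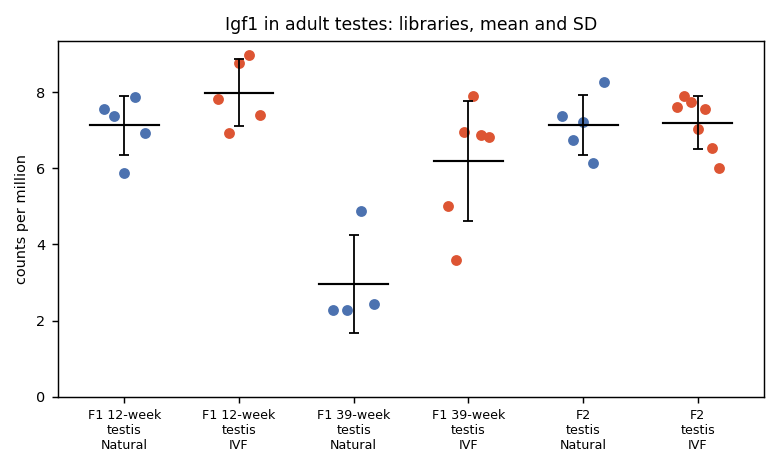
Igf1 in adult testes, in CPM, one point per library, with the group mean and SD. At 12 weeks and in F2 the groups overlap; at 39 weeks natural 3, at 4.89 CPM, lies within the IVF range of 3.59 to 7.90 CPM and the other naturals lie below it.

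The remaining gonad values stood further from the threshold. In 12-week testis Igfbp2 averaged 9.46 ± 0.87 CPM in naturals and 12.0 ± 2.38 in IVF, a log2 fold change of 0.35 ± 0.14 with an edgeR adjusted p of 0.313. In the ovary Irs1 stood at 159, 179, 148 and 140 CPM in naturals and at 128, 167, 103, 90.8 and 96.8 CPM in IVF. Only IVF 2 lay within the natural range, and the log2 fold change was -0.42 ± 0.17 with an edgeR adjusted p of 0.436. Pik3r1 (-0.46 ± 0.33) and Igfbp2 (0.42 ± 0.22) had ovary changes of like size, and neither passed (edgeR adjusted p = 0.627 for Pik3r1).

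In male F2 livers, 5 of the 10 genes passed, at a background of 31.1% of all genes tested. Igf1, Foxo1 and Pik3r1 rose (3 of 10, against 13.9% of all genes) and Irs2 and Igfbp2 fell in IVF (2 of 10, against 17.2%). Igf1 stood at 456, 567.9, 591, 581 and 588 CPM in naturals and at 946, 1495, 1128, 974 and 958 CPM in IVF. Every IVF library lay above every natural, with IVF 2 the highest. The rise was 1.97-fold (log2 fold change 0.98 ± 0.17 SE, edgeR adjusted p = 0.000626). Foxo1 stood at 45.4, 38.5, 38.8, 52.1 and 51.2 CPM in naturals and at 56.1, 107, 62.7, 107.2 and 80.2 CPM in IVF. Its groups did not overlap either, although IVF 1 lay close to natural 4 (log2 fold change 0.89 ± 0.20, edgeR adjusted p = 0.00293).

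Pik3r1 stood at 47.8, 56.5, 54.2, 59.1 and 61.4 CPM in naturals and at 107, 117, 135, 89.97 and 59.1 CPM in IVF. IVF 1 to 4 lay above all naturals and IVF 5 among them (log2 fold change 0.83 ± 0.19, edgeR adjusted p = 0.00404). Irs2 stood at 10.6, 10.9, 13.6, 13.2 and 8.75 CPM in naturals and at 4.88, 13.7, 9.64, 5.31 and 2.66 CPM in IVF. IVF 1, 4 and 5 lay below all naturals, and IVF 2 was the highest of the 10 libraries (log2 fold change -0.98 ± 0.34, edgeR adjusted p = 0.0341). Its counts were low, from 4 in IVF 3 to 62 in IVF 1, and DESeq2's Wald test gave an adjusted p of 0.0515. Igfbp2 stood at 406, 475, 616, 509 and 304 CPM in naturals and at 429, 224, 203, 199 and 324 CPM in IVF, with IVF 1 and 5 inside the natural range (log2 fold change -0.74 ± 0.24, edgeR adjusted p = 0.0251). Without the shallow IVF 2 and 3, its log2 fold change was -0.52 with an edgeR adjusted p of 0.163.

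The other 5 genes did not pass in male liver. Akt2 stood at 86.7 to 95.4 CPM in the 5 naturals and at 65.2, 39.8, 33.8, 83.5 and 77.4 CPM in IVF. All IVF libraries lay below all naturals, by a log2 fold change of -0.53 ± 0.20 with an edgeR adjusted p of 0.055. Groups that did not overlap were thus seen for 3 of the 10 genes, Igf1, Foxo1 and Akt2, against 27% of all genes tested. Igfbp1 stood at 14.96, 20.03, 25.2, 31.1 and 6.65 CPM in naturals and at 10.9, 203, 28.9, 237 and 20.6 CPM in IVF. IVF 2 and 4 lay far above all others and the remaining IVF libraries within the natural range (log2 fold change 2.38 ± 0.91, edgeR adjusted p = 0.075, and 0.0239 with DESeq2's Wald test). Insr (0.19 ± 0.19), Igf1r (0.55 ± 0.45) and Irs1 (-0.21 ± 0.21) had edgeR adjusted p from 0.365 to 0.472.

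Leaving out single libraries moved the number of genes called in male liver between 3 and 6. It was 3 without natural 2, 3 or 4, and 6 without IVF 5. The calls of Irs2 and Igfbp2 were the ones lost: Irs2 without natural 1, 2, 3 or 4 or IVF 1, 4 or 5, and Igfbp2 without natural 2, 3 or 4 or IVF 2, 3 or 4. Igf1, Foxo1 and Pik3r1 were called in each of these fits. Akt2 gained a call without IVF 4 or 5, and Igfbp1 without IVF 1 (edgeR adjusted p = 0.0284) or IVF 5 (0.0491).

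In female F2 livers, 5 of the 10 genes also passed, at a background of 39.4%. Igf1 and Pik3r1 fell (2 of 10, against 17.8% of all genes) and Irs2, Akt2 and Igfbp2 rose in IVF (3 of 10, against 21.6%). Igf1 stood at 1517, 1158, 1907, 1658 and 1446 CPM in naturals, and the 6 IVF libraries ranged from 525.6 to 827 with a median of 658.5 CPM. Every IVF library lay below every natural, a 2.29-fold fall (log2 fold change -1.19 ± 0.17, edgeR adjusted p = 4.72e-05). Pik3r1 stood at 122, 118, 93.5, 94.6 and 163 CPM in naturals and at 56.0 to 82.8 (median 69.7) CPM in IVF. These groups did not overlap either (log2 fold change -0.77 ± 0.15, edgeR adjusted p = 0.000751).

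Irs2 stood at 1.83, 7.32, 6.78, 4.57 and 5.27 CPM in naturals and at 8.89 to 24.2 (median 14.05) CPM in IVF. All IVF libraries lay above all naturals (2.78-fold, log2 fold change 1.48 ± 0.34, edgeR adjusted p = 0.0021). Akt2 stood at 42.1, 60.2, 46.3, 41.0 and 54.8 CPM in naturals and at 65.04 to 113 (median 95.1) CPM in IVF, again without overlap (log2 fold change 0.92 ± 0.16, edgeR adjusted p = 0.00019). Igfbp2 stood at 336, 465.6, 249, 280 and 213 CPM in naturals and at 419 to 558 (median 516) CPM in IVF. Natural 2 lay within the IVF range (log2 fold change 0.71 ± 0.18, edgeR adjusted p = 0.00377). Groups that did not overlap were seen for 4 of the 10 genes, against 29.4% of all genes tested.

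Insr fell in female IVF liver by less than 1.5-fold, from 149 ± 10.4 to 118 ± 12.8 CPM (log2 fold change -0.34 ± 0.12, edgeR adjusted p = 0.0229). Irs1 (-0.45 ± 0.22), Foxo1 (-0.27 ± 0.16) and Igf1r (-0.16 ± 0.30) had edgeR adjusted p from 0.101 to 0.686. Igfbp1 ranged from 35.3 to 90.4 CPM in naturals and from 5.91 to 223 CPM in IVF, a spread that covered the whole natural range (log2 fold change 0.35 ± 0.79, edgeR adjusted p = 0.742). Leaving out single libraries gave 5 or 6 calls in female liver.

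**Figure D4:**
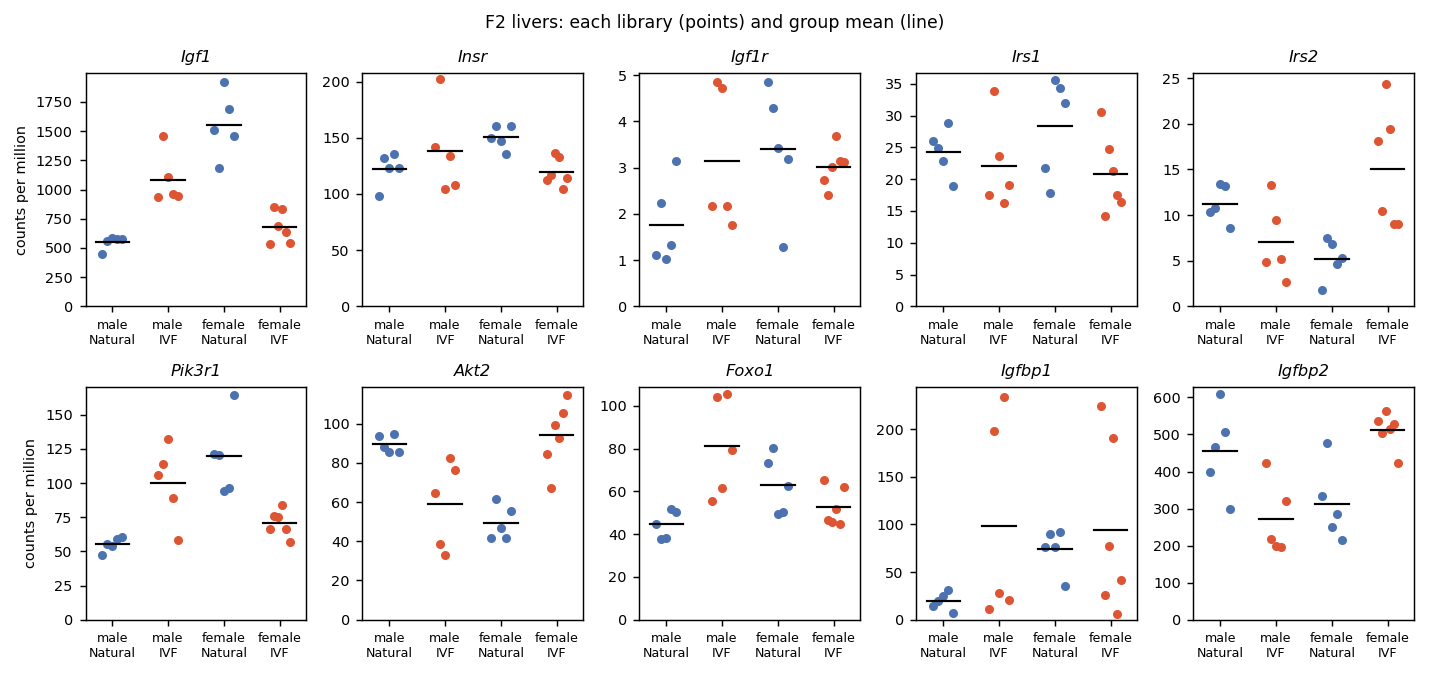
CPM of each of the 10 genes in every F2 liver library, by sex and group, with the group mean as a line. Igf1 and Pik3r1 have higher means in IVF males and lower means in IVF females than in naturals of the same sex, Irs2, Akt2 and Igfbp2 lie the other way, and Igfbp1 spreads widest in IVF.

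The IVF effect differed between male and female liver in 6 of the 10 genes, where 52.9% of all genes tested had such an interaction. Male and female livers were separate sets of counts. Sex and set therefore cannot be told apart in the interaction or in any difference between male and female liver. On the log2 scale, the effect in females minus that in males was -2.16 ± 0.24 (SE) for Igf1 (edgeR adjusted p = 4.41e-08) and -1.58 ± 0.25 for Pik3r1 (6.38e-06). It was 1.45 ± 0.26 for Akt2 (edgeR adjusted p = 3.84e-05) and 2.46 ± 0.50 for Irs2 (0.000197). Igfbp2 (1.45 ± 0.31) and Foxo1 (-1.14 ± 0.25) had edgeR adjusted p of 0.000286 and 0.000412. Opposite signs in the sexes were a property of the tables as a whole: they were found for 8 of the 10 genes (80%) and for 82.2% of all 11825 genes tested in both livers. Of genes called in both, 4 of 4 among the 10 (Igf1, Irs2, Pik3r1 and Igfbp2) and 2907 of 2917 in all (99.7%) had opposite signs.

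Over the 4 liver groups scaled together, Igf1 averaged 550 ± 57.3 CPM in natural males, 1081 ± 221 in IVF males, 1553 ± 274 in natural females and 681.5 ± 138 in IVF females. As counted, the difference between the sexes had opposite signs in naturals and in IVF. In naturals, female exceeded male liver by a log2 ratio of 1.505 ± 0.15 (edgeR adjusted p = 1.14e-06), and in IVF it was -0.66 ± 0.19 (edgeR adjusted p = 0.0137). Irs2 went from -1.06 in naturals to 1.38 in IVF, Akt2 from -0.84 to 0.61, and all 4 values were called, at backgrounds of 45% in naturals and 31% in IVF. Pik3r1 (1.13) and Igfbp1 (1.92) were also higher in female than in male natural liver. Foxo1 (-0.64) was lower and Igfbp2 (0.91) higher in female than in male IVF liver. With the GC trend of each library removed, Igf1 was still higher in female than in male natural liver (log2 ratio 0.71, edgeR adjusted p = 0.00054) and was not called in IVF (-0.07, edgeR adjusted p = 0.848). Irs2 then had -0.29 and 0.63 and Akt2 -0.20 and -0.06, none of them called. Igf1, Pik3r1 (0.74), Igfbp1 (2.07) and Igfbp2 (0.755, with its sign changed) were called in naturals and Foxo1 (-0.71) alone in IVF, at backgrounds of 28.3% and 16.7%. In the fit of levels over all 7 tissues, 7 of the 10 genes differed between female and male natural liver, against 35.2% of all genes tested.

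The sex labels of the libraries held, with Ddx3y, a Y-linked gene, at 40.2 to 96.9 CPM in male and 0 in female livers. Xist, transcribed from the inactive X chromosome, stood at 173 CPM or more in every female liver and at 0.36 to 0.68 CPM in natural and 1.17 to 18.9 CPM in IVF male livers. Summed hepatocyte markers moved with the liver groups as Igf1 did. They ranged from 76090 to 102100 CPM in natural and from 96020 to 148300 in IVF males, with 3 of 8 markers called higher, where 13.9% of all genes were. In females they ranged from 168100 to 251200 CPM in naturals and from 108000 to 131000 in IVF, with 4 of 8 called lower, against 17.8% of all genes. Stellate cell markers ranged from 135 to 168 and from 198 to 358 CPM in natural and IVF males, with 2 of 6 higher. In females they ranged from 316.5 to 384.6 and from 149 to 235 CPM, with 4 of 6 lower and 1 higher. Kupffer cell markers overlapped between the groups, at 135 to 231.5 and 136 to 298 CPM in natural and IVF males (3 of 7 higher) and at 137 to 321.5 and 155 to 333 CPM in females (0 of 7 called). Endothelial markers also overlapped, at 104.5 to 142.5 and 94.0 to 157.5 CPM in males (2 of 6 higher) and at 99.7 to 267 and 113.5 to 152 CPM in females (2 of 6 lower). The part of these markers in the changes of the 10 genes was not tested.

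The liver changes also followed the GC content of the genes. Over all genes, Spearman's rho between GC content and log2 fold change was -0.601 in male and 0.709 in female liver, against -0.421 to 0.19 in the gonads. Across the 10 genes, whose values share their libraries, Pearson's r was -0.58 in male and 0.87 in female liver. Across the 9 genes tested in the gonads it was -0.71 in 39-week testis and 0.55 in ovary. At E18.5, at 12 weeks and in F2 testis it was -0.31, 0.16 and -0.18. Igf1, the poorest in GC at 38%, rose in males and fell in females, and Igfbp2, the richest at 62.1%, did the reverse. The GC contents of Pik3r1 (44.9%), Akt2 (55.2%) and Irs2 (56.6%) lay between them. The trend also separated single libraries: in females, rho between GC content and a library's deviation from the mean ran from -0.623 to -0.322 in naturals and from 0.324 to 0.647 in IVF, and in males from 0.435 to 0.515 in naturals and from -0.482 to -0.11 in IVF.

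When the GC trend of each library was removed before the test, 1 of the 10 genes was called in male liver and none in female liver, against backgrounds of 16.83% and 18.48%. Foxo1 (48.5% GC) kept its rise in males, with a log2 fold change of 0.91 and an edgeR adjusted p of 0.00529. Igf1 had log2 fold changes of 0.40 in males and -0.36 in females, with edgeR adjusted p of 0.0654 and 0.0887. Pik3r1 had 0.63 and -0.38 (edgeR adjusted p = 0.0603 and 0.0582). Igfbp2 changed sign, to 0.64 in males and -0.49 in females (edgeR adjusted p = 0.0849 and 0.0453, the second within the 1.5-fold limit). Irs2 (-0.26 and 0.73) and Akt2 (0.09 and 0.27) lay above an edgeR adjusted p of 0.05. The interaction with sex was still called for 4 genes, at a background of 34.84%: Igf1 (-0.80), Pik3r1 (-1.06), Foxo1 (-1.13) and, with its sign changed, Igfbp2 (-1.25). The removal takes out any change that runs with GC content, whatever its source, and which libraries were run on which sequencer or in which batch is not given in the sources used here.

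**Figure D5:**
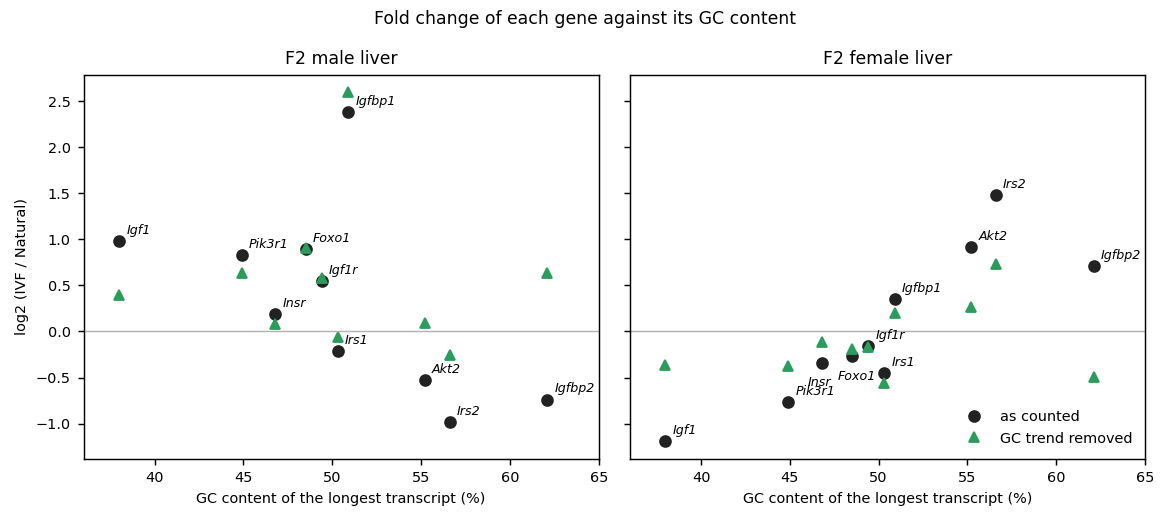
Log2 fold change of IVF over natural against GC content in percent for the 10 genes in male and female liver, as counted and with the GC trend of each library removed. As counted, values fall with GC content in males and rise in females (Pearson's r -0.58 and 0.87); after removal they lie closer to 0 for Igf1, Irs2, Akt2 and Pik3r1, and Igfbp2 has changed sign.

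A wider list of 97 genes of the pathway, of which 96 were found in all tables, moved much as the tables did. In the gonads edgeR called 0 of the 84 or 85 tested genes at E18.5, 12 weeks, 39 weeks and in ovary. There 19, 11, 10 and 13 had an unadjusted p under 0.05 with edgeR (17.7%, 12.9%, 10.5% and 10.6% of all genes did). DESeq2's Wald test called 0, 0, 1 and 0, against 0.535%, 0.206%, 0.245% and 0.25% of all symbols listed, with or without counts. In F2 testis 1 of 87 was called, against 0.914% of all genes. That gene was Sh2b2, an adaptor of the insulin receptor, which fell from 8.68 to 4.32 CPM (log2 fold change -1.0 ± 0.12, edgeR adjusted p = 3.23e-05). In male liver 11 genes rose and 17 fell of 82 tested (34.1% against 31.1% of all genes), with a median log2 fold change of -0.145 against -0.0109 over all genes. In female liver 22 rose and 12 fell of 84 (40.5% against 39.4%), with a median of 0.13 against -0.0106. With the GC trend removed, 9 of 82 (11%) and 6 of 84 (7.14%) were called, against 16.83% and 18.48% of all genes, and 5 in each liver were among those called as counted, with the same sign. These were Igfals, Foxo1, Ppargc1a, Gys2 and Eif4ebp1 in males and Igfals, Ppargc1a, Igfbp7, Sh2b1 and Eif4ebp1 in females.

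Groups did not overlap for 22 of 82 genes of the list in male and 26 of 84 in female liver, against 27% and 29.4% of all genes. As counted, 25 genes of the list were called in both livers. All 25 had opposite signs, as did 2907 of 2917 over all genes. Igfals, the acid-labile subunit that holds IGFs in the circulation, fell in males (log2 fold change -1.59) and rose in females (1.58). The adaptor Sh2b1 (-1.51 and 1.78), the lipid phosphatase gene Inppl1 (-1.10 and 1.14), Akt1 (-0.77 and 1.36), the mTORC1 inhibitor gene Akt1s1 (-1.30 and 1.5) and the regulatory subunit gene Pik3r2 (-0.72 and 0.87) also fell in males and rose in females. The catalytic subunit gene Pik3ca (0.61 and -0.72), the S6 kinase gene Rps6kb1 (1.01 and -1.08) and the coactivator gene Ppargc1a (1.71 and -1.25) rose in males and fell in females. So did the liver glycogen synthase gene Gys2 (1.40 and -0.70). The receptor phosphatase gene Ptprf (-1.0 and 0.95) and Foxo4 (-0.79 and 0.59) fell in males and rose in females. The translation repressor gene Eif4ebp1 (-0.97 and 1.69) and the adaptor gene Shc1 (-0.91 and 0.86) did the same. Prlr (0.71 and -0.85) and Jak2 (0.70 and -0.60) rose in males and fell in females. With the GC trend removed, Pik3r2 changed sign in both livers (0.41 in males and -0.34 in females). Akt1 changed sign in males (0.24, with 0.32 in females) and Foxo4 in females (-0.085, with -0.16 in males). None of these values was called, and the other genes named so far in this paragraph kept their signs. As counted, the growth hormone receptor gene Ghr (-1.02) and the binding protein gene Igfbp7 (-0.74) fell in females. Neither was then called in males (0.45 and 0.40). With the GC trend removed, Igfbp7 was called in both livers, at 1.47 in males (edgeR adjusted p = 0.00913) and -1.71 in females (3.93e-05). Ghr was then called in neither liver (0.02 in males and -0.35 in females).

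The genes most like each of the 10 in level were sought over the 32 natural libraries and 12959 genes. The libraries fall into tissues, so Pearson's r on the log2 CPM scale is given as a description, with no p. Igf1 was most like Ptprk (0.989), Insr like Acadsb (0.993), and Igf1r like Fyn (0.981). Irs1 was most like Ets2 (0.986) and Irs2 like Ythdf1 (0.963). Pik3r1 was most like Ddx3x (0.992) and Foxo1 like Actn1 (0.986). Igfbp1 was most like Apcs (0.981), and Igfbp2 like Cyp4v3 (0.991). Akt2 had the least like partner, Atp13a1 (0.918), and 2 genes in all with r over 0.9, against 1281 for Insr and 22 for Irs2.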

How the data were processed

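Poly(A) RNA of 72 snap-frozen gonads and livers was sequenced from stranded libraries (KAPA Stranded mRNA-Seq). The authors deposited raw counts per gene in 7 tables, 1 per tissue, age and generation, with male and female livers apart. Per the submitters' processing notes, Trimmomatic 0.32, STAR 2.3.0e, featureCounts 1.5.0 and DESeq2 were used with genome build mm10. The counter's strand setting is not given in the sources used here, so reads of Igf1, Igf1r and Irs2 and of the overlapping RNAs Igf1os, Gm51488 and Gm51487, and 9530052E02Rik cannot be told apart. Low counts were mostly even (60% to 94.3% of counts from 1 to 20), as when both mates of a pair are counted, so precision is below what the totals imply.

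Each table was fitted on all its genes with edgeR 4.0.16 in R 4.3.3 (filterByExpr, TMM scaling, robust quasi-likelihood, two-sided test of IVF against Natural). Adjusted p is Benjamini-Hochberg over all genes tested, and a gene was called at an adjusted p under 0.05 and more than 1.5-fold. Levels between tissues came from 1 fit of the 32 natural libraries over 18451 genes, and the sex interaction from 1 fit of both livers. Exon length and GC content are from GENCODE M21, and promoter windows and positions from RefSeq (GRCm38.p6). GC trends were removed with smoothed offsets for each library. DESeq2 1.42.0, other scalings, no filter, thinning, replicate blocks and left-out libraries were alternatives. The tests were checked on simulated data.

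Genes were named by rule: all 10 members, and of the wider pathway list up to 8 in each direction called with groups apart. The members, lists and tests were chosen with earlier results of these data known. The alternatives without the 2 shallow male livers and with near-identical libraries summed were chosen after seeing the data. The series text gives 4 and 4 female livers, while the labels give 5 and 6, and all labelled libraries were used.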

Additional observations from a re-analysis of the deposited data

Results flagged for a closer look

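For 6 genes the effect of IVF differed between female and male liver, by a tested interaction. The differences in log2 fold change, female minus male, were -2.16 for Igf1, 2.46 for Irs2, -1.58 for Pik3r1, 1.45 for Akt2, -1.14 for Foxo1 and 1.45 for Igfbp2. Of all genes tested, 52.9% had such an interaction. Sex and set of counts cannot be told apart in it. With the GC trend removed, at a background of 34.84%, Igf1 (-0.80), Pik3r1 (-1.06) and Foxo1 (-1.13) were still called, Irs2 (0.95, edgeR adjusted p = 0.243) and Akt2 (0.13, edgeR adjusted p = 0.627) were not, and Igfbp2 had the other sign (-1.25, edgeR adjusted p = 0.00427).

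In 9 of the 131 groups of 4 to 7 libraries tested, 1 library stood apart from the others of its group by Dixon's criterion, which chance alone meets in about 1 in 20 groups. For Igf1 these were natural 3 of the 39-week testes (4.89 CPM against 2.27 to 2.43), natural 1 of the male livers (456 against 567.9 to 591) and natural 3 of the ovaries (198 against 143 to 150). For Igfbp1 they were natural 1 of the fetal testes (15.7 CPM against 0), the library with the highest hepatocyte markers of its group, and natural 5 of the female livers (35.3 against 76.0 to 90.4). For Pik3r1 they were natural 1 of the 12-week testes (3.51 CPM against 5.82 to 6.57) and IVF 2 of the fetal testes (170 against 119 to 138). That same fetal library stood apart in Igfbp2 (80.1 CPM against 19.7 to 31.8). Natural 5 of the 12-week testes stood apart in Igf1r (33.9 CPM against 27.3 to 28.8).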

How the results depend on the processing

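With the GC trend removed, 1 gene of the 10 and 9 of the pathway list were called in male liver, against 16.83% of all genes. In female liver 0 and 6 were called, against 18.48%. With a replicate block as well these were 1 and 9, and 0 and 7, against 12.8% and 14.2% of all genes. With the GC trend removed and without the 2 shallow male IVF livers they were 2 and 11, against 15.5%. Igfbp2 reversed under each: 0.64, 0.63 (with block) and 0.46 (without the shallow libraries) in male liver, -0.49 and -0.39 (with block) in female liver, and -1.25 for the interaction. What the trend stems from was not tested. DESeq2's Wald test called 1 gene of the 10 (Igf1) and 1 of the list at 39 weeks, against 0.245% of all symbols listed. Without a fold limit, 3 genes of the list were called at E18.5 and 1 at 12 weeks, against 1.17% and 0.746% of all genes.

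With IVF in place of natural libraries, the fit of the livers alone called 5 genes between female and male liver, against 31% of all genes. The fit of all 7 tissues called 4, against 31.5%, and Igf1 was not among them. In that fit 0 genes differed between 39 and 12 weeks, against 0.0108%. Signs reversed between the livers for Igf1 (-0.22), Irs2 (1.73), Pik3r1 (-0.03), Akt2 (0.96) and Igfbp2 (1.27), between female liver and ovary for Irs2 (1.27) and Akt2 (1.02), and for Igfbp1 between 12 weeks and E18.5 (1.35).

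Leaving out single libraries gave 3 to 6 calls among the 10 and 22 to 32 in the list in male liver, 5 to 6 and 32 to 37 in female liver, 0 to 2 in the list at E18.5, 6 to 7 interactions, 8 to 9 level calls between 12 weeks and E18.5 (Igfbp1 from -5.15 to 3.68), 0 to 1 between 39 and 12 weeks, 5 to 7 between the livers and 7 to 9 between female liver and ovary. Under the other settings, 881 values of single genes kept their side of the threshold, 30 lost it, 9 gained it and 14 reversed.

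Replicate numbers did not pair the libraries (same-number correlations within comparisons from -0.226 to 0.301). With the replicate block, 6 genes were called in male liver (Akt2 gained, -0.62) and 5 in female liver, against 27.1% and 34.2% of all genes. In male liver 3250 of all genes were called, against 3725 without the block. No 2 libraries agreed fully within sampling noise. Chi-square per degree of freedom was 1.53 for 39-week naturals 1 and 2, and 1.42 for IVF 3 and 4 and 1.84 for naturals 1 and 2 of F2 testis. With these pairs summed, none of the 10 genes was called in either tissue with edgeR or DESeq2, and edgeR called 92 of all genes in F2 testis against 196. Depth limits Irs2, Igf1r and Akt2 in the shallow male livers.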
